A study of Rattus norvegicus with 12 samples.

Results

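The genes described here encode microtubule-associated proteins, the proteins that bind along microtubules and set how stable, bundled and passable they are. They were chosen by symbol as 9 rows of a table of 30454 genes: Map1a, Map1b, Map1s, Map2, Mapt, Map4, Map6, Map7 and Dcx. Each symbol matched 1 row, and 8 of the 9 had enough reads to be tested, while Dcx did not. RNA of rat cells that the labels call PC12 was sequenced in bulk, in 12 libraries. PC12 is a line from a tumour of the adrenal medulla that is used as a model of neurons. The rTMS-MSCs group (4 libraries) had deprivation of oxygen and glucose with reoxygenation, then mesenchymal stem cells together with magnetic stimulation of 10 Hz. The MSCs group (4 libraries) had the same deprivation and the stem cells without stimulation, and the OGDR group (4 libraries) had the deprivation with no added treatment. The series text gives 48 h after treatment as the time of sampling. All 3 groups had gone through deprivation, and cells without it were not analysed here. Neither the species of the stem cells nor the way they met the labelled cells is given in the sources used here. The labels name no separate cultures behind the 4 libraries of a group. The p-values therefore measure the spread between these libraries, which may be technical.

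Microtubules are polymers of tubulin that serve as tracks for transport and as the frame of axons and dendrites. Microtubule-associated proteins are known to shift as a neuron matures. MAP1B and doublecortin mark the early, growing phase, MAP1A and MAP2 the mature dendrite, and tau the axon, while MAP4 is the common form in cells that are not neurons. Phosphorylation is known to loosen the hold of several of them on the polymer.

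The libraries held 18246250 to 20471838 counts in genes. Levels are given in CPM, counts scaled to a common library total, after TMM scaling, which adjusts for differences in composition between libraries. Levels of different genes are not set against each other because no transcript length was used. Differences are log2 fold changes with standard errors from the edgeR quasi-likelihood test over 13692 genes. The words rose, fell and changed are kept for a Benjamini-Hochberg adjusted p, over all those genes, under 0.05. On the second principal component rTMS-MSCs 3 (32.4) and MSCs 3 (-30.8) lay at opposite ends, so results that rest on them are given with and without this pair. Without it, 677 genes changed between rTMS-MSCs and MSCs, against 2475 with it. The pair was picked after the data were seen. Leaving out extreme libraries can narrow the spread, so a smaller p-value without the pair is not stronger evidence.

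Markers were read as a check of the label. Of 12 chromaffin genes 3 had no count in any library, Ddc and Hand2 among them, and the granule protein gene Scg2 alone reached 10 CPM. Of 12 neuronal genes Nefl and Elavl4 had no count, and only the synapsin gene Syn1 and the tubulin gene Tubb3 reached 10 CPM. The glial and Schwann cell list had 7 of 10 genes at 10 CPM or more, led by Sox10, S100b and Ngfr, also in OGDR, which had no stem cells. These levels go against a chromaffin or neuronal reading of the label, and the cells are called the labelled cells here. Bulk RNA cannot tell fewer cells of a type from less RNA per cell.

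The promoters of the MAP1 pair and of Map2 are shown because Map1a and Map1b rose and fell together and Map2 fell with them in 1 comparison. Of the 9 genes, 6 had an entry in the RefSeq promoter table (build GRCr8), namely Map1a, Map1b, Map1s, Map2, Map7 and Dcx. Each sequence gives the 250 bases before the annotated start, 5′ to 3′ on the strand of the gene, with motif matches in capitals. Map1a lies at chr3:128722445-128722694 (plus strand), Map1b at chr2:32644472-32644721 (minus strand) and Map2 at chr9:75346440-75346689 (plus strand).
Map1a: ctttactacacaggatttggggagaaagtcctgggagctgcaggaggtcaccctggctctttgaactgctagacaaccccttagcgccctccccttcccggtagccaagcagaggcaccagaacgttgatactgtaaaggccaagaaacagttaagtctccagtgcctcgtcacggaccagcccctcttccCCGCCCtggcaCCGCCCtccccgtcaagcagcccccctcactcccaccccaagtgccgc
Map1b: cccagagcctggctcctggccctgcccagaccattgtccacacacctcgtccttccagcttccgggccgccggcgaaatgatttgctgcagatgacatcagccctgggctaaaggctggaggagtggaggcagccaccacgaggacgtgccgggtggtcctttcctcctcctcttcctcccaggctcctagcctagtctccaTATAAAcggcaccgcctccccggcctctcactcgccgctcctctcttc
Map2: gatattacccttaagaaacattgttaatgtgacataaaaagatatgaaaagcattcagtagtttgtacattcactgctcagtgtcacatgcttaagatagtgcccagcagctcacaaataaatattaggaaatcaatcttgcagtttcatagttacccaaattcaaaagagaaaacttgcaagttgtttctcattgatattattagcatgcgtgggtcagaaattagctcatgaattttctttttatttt
The motifs searched on both strands were the GC box GGGCGG, the TATA box TATAAA, the cyclic AMP element TGACGTCA, the AP-1 site TGANTCA, the E-box CACGTG and the EGR site GCGTGGGCG. The Map1a window held 2 GC boxes, which begin 59 and 48 bases before the start, and 30.5% of all 33469 promoters of this length held at least 1. The Map1b window held 1 TATA box, which begins 48 bases before the start, and 12.9% of all promoters held one. Map2 had none of the 6 motifs in its window. Its GC content was 32.0%, against 60.4% for Map1a, 63.6% for Map1b and a median of 51.2% over all promoters. The windows of the pair that moved together thus shared none of these motifs with each other, and a match is only a match of letters.

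**Figure D1:**
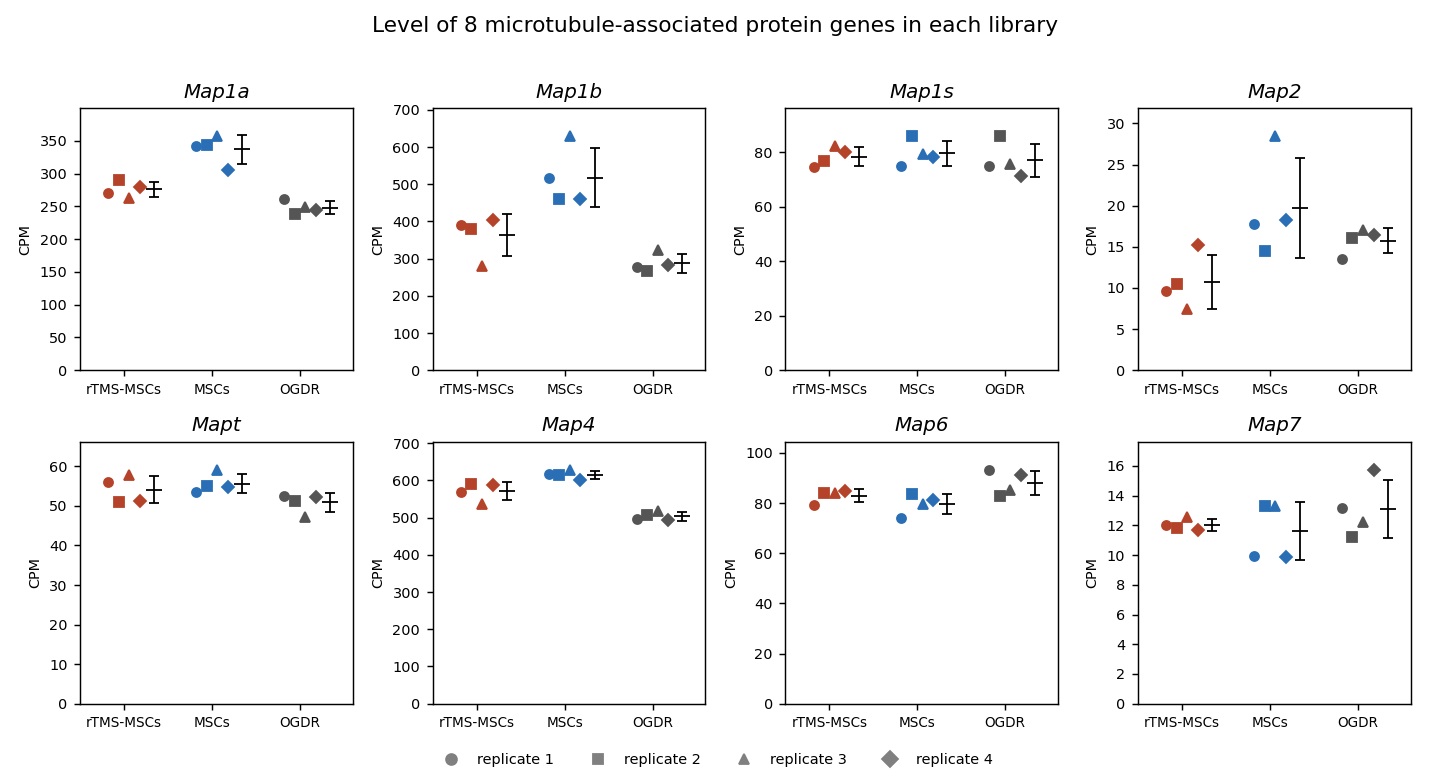
Levels of the 8 tested genes in CPM (vertical axes, from 0, 1 panel per gene) in every library of the 3 groups, with marker shape for the replicate number and a bar for the mean and SD of each group (n = 4). Map1a, Map1b and Map4 are highest in MSCs, Map2 is lowest in rTMS-MSCs, and replicate 3 (triangles) is the lowest rTMS-MSCs library and the highest MSCs library in all 4 of these panels.

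The addition of stem cells was asked about first, in MSCs against OGDR. Map1a, Map1b and Map4 rose, none of the 8 tested members fell, and Map2, Mapt, Map1s, Map6 and Map7 did not pass the test. Over all tested genes 20.2% changed in this comparison, 11.6% higher and 8.63% lower, beside 3 of 8 members higher and 0 lower (edgeR). At an unadjusted p under 0.05 there was 1 lower member, Map6, and DESeq2 gave 3 higher and 0 lower. The median log2 fold change was 0.209 over the 8 members and -0.00212 over all genes.

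Map1b, whose protein is cut into a heavy and a light chain that steer the growing axon, showed the largest difference among the members. It stood at 518, 461, 629 and 461 CPM in MSCs, against 276, 266, 323 and 284 CPM in OGDR. The lowest MSCs library was well above the highest OGDR library. The log2 fold change was 0.85 ± 0.103 (SE; edgeR quasi-likelihood test, adjusted p = 3.26e-06), or 1.80-fold. Without the pair of libraries that stood apart it was 0.74 (adjusted p = 3.8e-11).

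Map1a, the MAP1 protein of mature dendrites, rose by less. Its levels were 343, 344, 357 and 305 CPM in MSCs, against 262, 238, 249 and 244 CPM in OGDR. Again the groups did not overlap, with MSCs 4 the lowest of its group. The log2 fold change was 0.44 ± 0.0559 (SE; edgeR, adjusted p = 5.29e-06). Tp53bp1, a DNA repair gene that overlaps Map1a in the RefSeq annotation, did not pass in this comparison (log2 fold change 0.04, edgeR adjusted p = 0.683).

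Map4, which stabilizes microtubules in most dividing cells, rose by 0.29 ± 0.0459 (SE; edgeR, adjusted p = 8.44e-05). It was measured at 617, 614, 628 and 602 CPM in MSCs, against 496, 507, 518 and 494 CPM in OGDR. This was the tightest of the members, with a standard deviation of 1.76% of the mean in MSCs and 2.25% in OGDR. A rise of 22.2% was therefore far outside the spread of either group.

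Members that did not pass had intervals that bound the difference. Mapt, which encodes tau, stood at 53.5 to 59.1 CPM in MSCs, against 47.3 to 52.6 CPM in OGDR. These ranges did not overlap, yet the log2 fold change was 0.13 with a 95% interval of -0.02 to 0.27 (edgeR, adjusted p = 0.21). With Mapt, 4 of 8 members had groups that did not overlap, and 24.7% of all tested genes did.

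Map2, which encodes the main MAP of dendrites, ranged from 14.5 to 28.4 CPM in MSCs, against 13.5 to 17.0 CPM in OGDR. MSCs 3 held the top value, and the next was 18.2 CPM. The log2 fold change of 0.32 ± 0.186 (SE; edgeR, adjusted p = 0.247) became 0.10 without the pair that stood apart (adjusted p = 0.675). Map6, whose protein protects microtubules from cold, had a log2 fold change of -0.15 (interval -0.27 to -0.02, edgeR adjusted p = 0.10). Map7, which recruits kinesin-1 to microtubules, had -0.17 (interval -0.44 to 0.10). Map1s, a broadly expressed MAP1 protein with a link to autophagy, had 0.05 (interval -0.09 to 0.19).

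**Figure D2:**
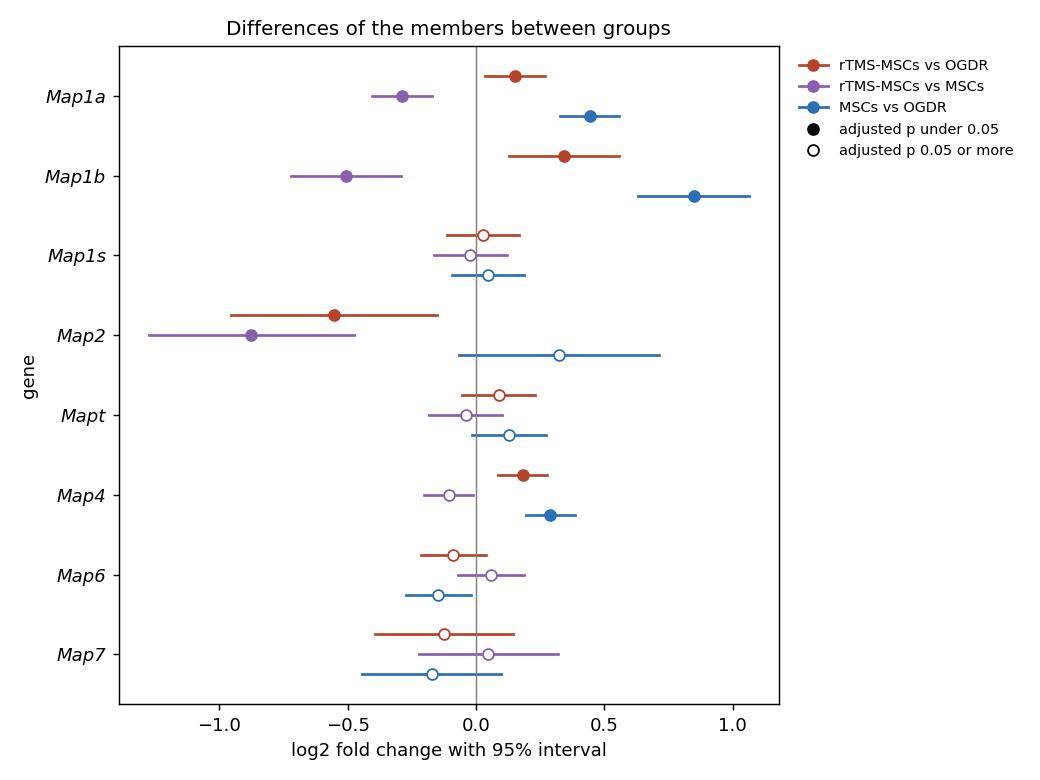
Log2 fold changes of the 8 tested members (points, horizontal axis) with 95% intervals (lines) in the 3 comparisons, with filled points for an adjusted p under 0.05. Map1a and Map1b lie to the right of 0 in MSCs against OGDR (0.44 and 0.85) and to the left in rTMS-MSCs against MSCs (-0.29 and -0.51), and Map2 lies farthest to the left (-0.88).

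Marker levels moved in the same comparison. The summed level of the 10 glial and Schwann genes was 1077 to 1150 CPM in MSCs, against 911.6 to 993.3 CPM in OGDR, and 5 of its 8 tested genes rose. The summed level of the 12 neuronal genes was 65.8 to 73.2 CPM in MSCs, against 55.3 to 60.6 CPM in OGDR, with 1 of 4 tested genes higher. The 12 stromal genes summed to 492.4 to 556.9 CPM in MSCs, against 492.7 to 520.7 CPM in OGDR, with 4 of 9 tested genes higher. Lum, a stromal matrix gene, had no count in any library, and Dcn had at most 1. The macrophage list had 0 of 2 tested genes past the threshold by edgeR and by DESeq2 (1 at an unadjusted p under 0.05), the endothelial list 1 of 3 higher, and the chromaffin list 1 higher and 1 lower of 6. Their part in the differences of the members was not tested.

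The effect of magnetic stimulation on top of stem cells was asked with rTMS-MSCs against MSCs. Map1a, Map1b and Map2 fell, no member rose, and Map4, Mapt, Map1s, Map6 and Map7 did not pass. Over all tested genes 18.1% changed, 7.14% higher and 10.9% lower, beside 0 of 8 members higher and 3 lower (edgeR). No member was higher at an unadjusted p under 0.05 or by DESeq2 either, and 4 were lower at that unadjusted level. Without the pair that stood apart the same 3 members fell, while 4.90% of all genes changed. This comparison shares the MSCs libraries with the one before it, so opposite signs in the 2 are not independent of each other.

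Map2 showed the largest difference here. Its levels were 9.66, 10.5, 7.47 and 15.2 CPM in rTMS-MSCs, against 17.7, 14.5, 28.4 and 18.2 CPM in MSCs. rTMS-MSCs 4 was above MSCs 2, so the groups overlapped by that library. The log2 fold change was -0.88 ± 0.191 (SE; edgeR quasi-likelihood test, adjusted p = 0.0054), which is a level 45.5% lower. Without MSCs 3 and rTMS-MSCs 3 it was -0.51 (edgeR, adjusted p = 0.0404), with 11.8 ± 3.00 CPM in rTMS-MSCs and 16.8 ± 2.01 CPM in MSCs (SD, n = 3 each). The gene had only 141 to 525 reads per library in these groups.

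Map1b was found at 390.0, 381, 281 and 404 CPM in rTMS-MSCs, against 518, 461, 629 and 461 CPM in MSCs. No value of one group reached the other, and the extremes on both sides were replicate 3. It fell by 0.51 ± 0.103 on the log2 scale (SE; edgeR, adjusted p = 0.00354), and by 0.29 without the pair that stood apart (edgeR, adjusted p = 0.00638). Map1a fell as well, with 271, 290.2, 263 and 279.9 CPM in rTMS-MSCs, against 343, 344, 357 and 305 CPM in MSCs. The log2 fold change of Map1a was -0.29 ± 0.0558 (SE; edgeR, adjusted p = 0.00279), and -0.24 without the pair (edgeR, adjusted p = 0.0141). Tp53bp1, which overlaps it, also fell (-0.17, edgeR adjusted p = 0.0449). Reads on more than 1 gene were kept in a summary line and counted for neither. The strand setting of the counting is not given, and the part of the overlap in either count was not tested.

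Map4 had groups that did not overlap, at 537 to 589 CPM in rTMS-MSCs, against 602 to 628 CPM in MSCs, but it did not pass (log2 fold change -0.11 ± 0.0458, edgeR adjusted p = 0.107). In all, 3 of 8 members had groups that did not overlap, beside 19.0% of all tested genes. Mapt ranged from 51.0 to 57.8 CPM in rTMS-MSCs, against 53.5 to 59.1 CPM in MSCs, with an interval of -0.18 to 0.10. Map6 (0.06, interval -0.07 to 0.19), Map7 (0.05, interval -0.22 to 0.32) and Map1s (-0.02, interval -0.16 to 0.12) stayed within the spread of the libraries.

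Of the marker lists, the stromal genes summed to 371.7 to 488.5 CPM in rTMS-MSCs, against 492.4 to 556.9 CPM in MSCs, with 2 of 9 tested genes lower. The 2 were Pdgfra (240.9 CPM in rTMS-MSCs, 291.6 CPM in MSCs) and Prrx1 (102.4 and 133.8 CPM), the highest of the list, so the sum mainly follows them. In OGDR, which had no stem cells, they stood at 285.6 and 152.1 CPM. Glial and Schwann genes summed to 1055 to 1166 CPM in rTMS-MSCs, against 1077 to 1150 CPM in MSCs, with 1 higher and 1 lower of 8 tested genes. Neuronal genes summed to 71.4 to 79.3 CPM, against 65.8 to 73.2 CPM in MSCs. The macrophage list had 0 of 2 tested genes past the threshold by edgeR, and 1 by DESeq2 and at an unadjusted p under 0.05. For the neuronal (4 tested), endothelial (3 tested) and chromaffin (6 tested) lists there were 0 by each of these rules. The part of the stromal sum in the falls of Map1a, Map1b and Map2 was not tested.

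The combined treatment was set against untreated deprived cells in rTMS-MSCs against OGDR. Map1a, Map1b and Map4 rose and Map2 fell, while Mapt, Map1s, Map6 and Map7 did not pass. Over all tested genes 32.4% changed, 16.2% higher and 16.2% lower, beside 4 of 8 members. Of the 4 calls, those of Map1a and Map2 were each lost when most single libraries were left out.

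Map4 rose by 0.18 ± 0.0459 (SE; edgeR, adjusted p = 0.00464), with 570.2, 589, 537 and 589 CPM in rTMS-MSCs, against 496, 507, 518 and 494 CPM in OGDR. The groups did not overlap. Map1b rose by 0.34 ± 0.103 (SE; edgeR, adjusted p = 0.0151), at 364 ± 56.1 CPM in rTMS-MSCs and 287 ± 24.8 CPM in OGDR (SD, n = 4 each). The 2 groups overlapped by rTMS-MSCs 3 at 281 CPM, and without it and MSCs 3 the rise of Map1b was 0.45 (edgeR, adjusted p = 6.72e-07).

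Map1a had 275.9 ± 11.8 CPM in rTMS-MSCs and 248 ± 10.1 CPM in OGDR (SD, n = 4 each), with a log2 fold change of 0.15 ± 0.0559 (edgeR, adjusted p = 0.0415). It did not pass with 6 of 8 single libraries left out (highest adjusted p = 0.134). It also did not pass without the filter on low counts (edgeR, adjusted p = 0.0604). Without the pair that stood apart Map1a was at 0.18 and passed (edgeR, adjusted p = 0.0134). Map2 was at 10.7 ± 3.27 CPM in rTMS-MSCs and 15.8 ± 1.53 CPM in OGDR (SD, n = 4 each), with a log2 fold change of -0.55 ± 0.193 (edgeR, adjusted p = 0.0332). It passed in only 2 of 8 fits that left out 1 library (highest adjusted p = 0.0833), those without OGDR 1 and without rTMS-MSCs 4. With MSCs 3 and rTMS-MSCs 3 both left out it was -0.41 (edgeR, adjusted p = 0.0244). Groups did not overlap for 2 of 8 members, Map1a and Map4, beside 30.3% of all tested genes.

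Marker sums of the glial and Schwann list were 1055 to 1166 CPM in rTMS-MSCs, against 911.6 to 993.3 CPM in OGDR, and those of the neuronal list 71.4 to 79.3 CPM, against 55.3 to 60.6 CPM in OGDR. The stromal list summed to 371.7 to 488.5 CPM in rTMS-MSCs, against 492.7 to 520.7 CPM in OGDR. Tested genes higher and lower were 5 and 1 of 8 in the glial and Schwann list, 1 and 0 of 4 in the neuronal list, 3 and 2 of 9 in the stromal list and 1 and 1 of 6 in the chromaffin list. The macrophage list had 1 of 2 higher, and the endothelial list 0 of 3 by edgeR and DESeq2 (1 at an unadjusted p under 0.05). Their part in these differences was not tested.

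Over the 3 groups the order of levels was thus MSCs, rTMS-MSCs, OGDR for Map1a, Map1b and Map4, and MSCs, OGDR, rTMS-MSCs for Map2. In Map4 the step between MSCs and rTMS-MSCs did not pass, and in Map2 the step between MSCs and OGDR did not. In the other 4 members no step passed. Within groups, too, the members did not spread alike. The standard deviation was 30.5% of the mean for Map2 in rTMS-MSCs, 30.6% in MSCs and 9.70% in OGDR, while for Map4 it stayed between 1.76% and 4.29%. rTMS-MSCs 3 was the lowest library of its group and MSCs 3 the highest of its group for Map1a, Map1b, Map2 and Map4 alike. Mapt differed in this, with replicate 3 the highest library in both groups (57.8 CPM in rTMS-MSCs and 59.1 CPM in MSCs).

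Dcx encodes doublecortin, the MAP of young migrating neurons. It had 1 read in rTMS-MSCs 3 and none in the other 11 libraries. A count of 0 allows up to 3 reads, which is 0.145 to 0.162 CPM per library and covers counting error only. Nothing can be said about its direction at this depth.

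Ratios of members within a library do not move with the scaling of libraries, and the lengths of the genes cancel when the same ratio is compared between groups. They are given as a description, with no test. The log2 ratio of Map1a to Map1b was -0.387 ± 0.203 in rTMS-MSCs, -0.608 ± 0.161 in MSCs and -0.209 ± 0.125 in OGDR (SD, n = 4 each). All 4 MSCs libraries (-0.82 to -0.42) were below all 4 OGDR libraries (-0.38 to -0.08), so Map1b was higher relative to Map1a in MSCs. Without MSCs 3 and rTMS-MSCs 3 the ratio was -0.483 ± 0.0792 in rTMS-MSCs and -0.539 ± 0.10 in MSCs (SD, n = 3 each), so most of the gap between these 2 groups rests on that pair. The log2 ratio of Map1s to Map1b was -2.20 ± 0.288 in rTMS-MSCs, -2.69 ± 0.250 in MSCs and -1.90 ± 0.196 in OGDR (SD, n = 4 each). MSCs and OGDR did not overlap in it either, at -2.99 to -2.43 in MSCs, against -2.09 to -1.64 in OGDR. Without the pair its means were -2.35 in rTMS-MSCs and -2.59 in MSCs.

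Map2, tau and MAP4 share a repeat that binds microtubules, so Map2 and Mapt were each set against Map4. The log2 ratio of Map2 to Map4 was -5.78 ± 0.374 in rTMS-MSCs, -5.01 ± 0.392 in MSCs and -5.00 ± 0.130 in OGDR (SD, n = 4 each). It was lower in all 4 rTMS-MSCs libraries than in any OGDR library (-6.17 to -5.27 in rTMS-MSCs, against -5.19 to -4.91 in OGDR). rTMS-MSCs 4 (-5.27) lay above MSCs 2 (-5.40), so those groups overlapped. The near equality of the MSCs and OGDR means rests on MSCs 3 (-4.47). Without the pair the ratio was -5.65 ± 0.333 in rTMS-MSCs and -5.19 ± 0.188 in MSCs (SD, n = 3 each). The log2 ratio of Mapt to Map4 was -3.40 ± 0.151 in rTMS-MSCs, -3.47 ± 0.0486 in MSCs and -3.31 ± 0.103 in OGDR (SD, n = 4 each), with overlap between all pairs of groups. Without the pair MSCs and OGDR did not overlap in it, with the highest MSCs library at -3.458 and the lowest OGDR library at -3.455.

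**Figure D3:**
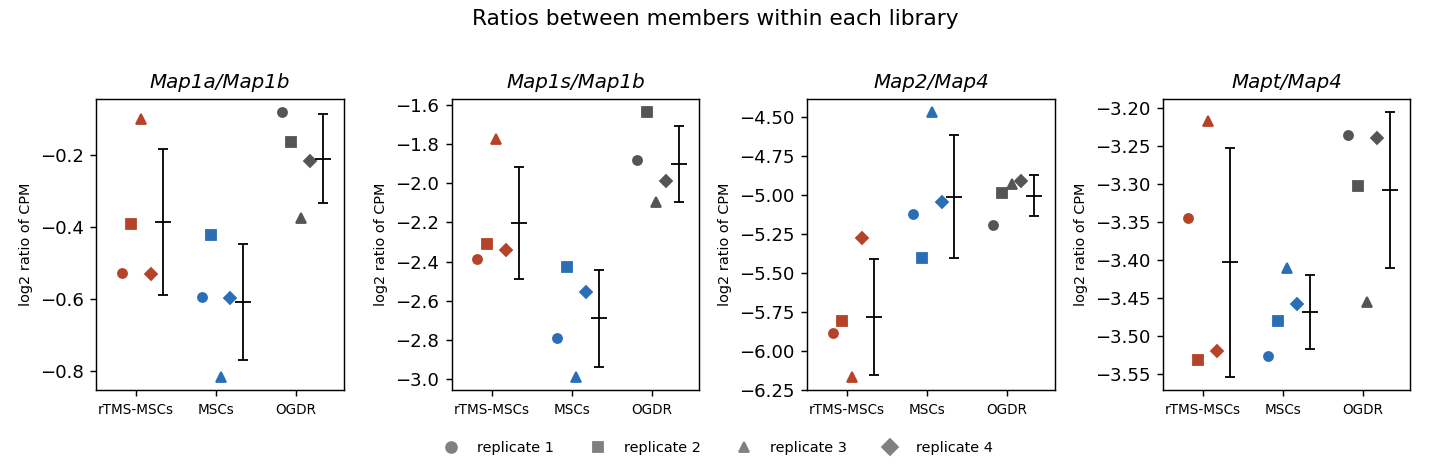
Log2 ratio of the CPM of 2 members (vertical axes, 1 panel per ratio, ranges differ and do not start at 0) in every library of the 3 groups, with marker shape for the replicate number and a bar for the mean and SD (n = 4). The ratios to Map1b are lowest in MSCs, at means of -0.608 for Map1a and -2.69 for Map1s, and Map2 to Map4 is lowest in rTMS-MSCs, at -5.78.

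For the 4 members that changed in any comparison, the most similar genes were found by the root mean square difference of log2 CPM over the 12 libraries, each gene centred on its own mean. Nearest to Map1b was Col12a1, a collagen chain (0.0842), followed by Aak1, an adaptor kinase of endocytosis (0.0937), where Map1b itself varied by 0.385. Col12a1 stood at 234.6 CPM in rTMS-MSCs, 326 CPM in MSCs and 191.5 CPM in OGDR. Nearest to Map1a were Agrn, the proteoglycan agrin (0.0453), the endocytic receptor Lrp1 (0.0524) and Arhgef10 (0.0583), beside its own 0.194. Nearest to Map4 were Cubn (0.0381), Elmo2 (0.0449) and Tnfaip1 (0.0474), beside its own 0.125. Secisbp2l (0.136), Xylt1 (0.143) and Arid2 (0.146) were nearest to Map2, beside its own 0.473. Xylt1, which starts the sugar chains of proteoglycans, stood at 33.4 CPM in rTMS-MSCs, 63.1 CPM in MSCs and 49.8 CPM in OGDR. All of these are likenesses of level over the same libraries, with no test. Over the 10 libraries without MSCs 3 and rTMS-MSCs 3, 6 of the 12 genes stayed among the nearest 3, with 2 each for Map1a, Map1b and Map4 and 0 for Map2.

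Other genes of the microtubule system were read from 6 lists of 128 symbols, of which 123 matched and 104 were tested. In MSCs against OGDR 15 rose and 6 fell, or 20.2% of those tested, the same share as over all genes, and without MSCs 3 and rTMS-MSCs 3 there were 15 and 10. In rTMS-MSCs against MSCs 3 rose and 25 fell (26.9%, beside 18.1% of all genes). Without the pair this was 0 higher and 9 lower of 104 (8.65%, beside 4.90% of all genes). In rTMS-MSCs against OGDR 16 rose and 26 fell (40.4%, beside 32.4% of all genes), and 12 rose and 21 fell without the pair. As for the members, MSCs against OGDR and rTMS-MSCs against MSCs share the MSCs libraries. Opposite signs in them are therefore not independent of each other.

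Among 12 tested relatives of the members, 3 rose and 0 fell in MSCs against OGDR, also by DESeq2, and 0 were lower at an unadjusted p under 0.05. Dclk1, a kinase with the doublecortin domain that Dcx carries, had 184 ± 9.68 CPM in MSCs and 127.8 ± 5.30 CPM in OGDR (SD, n = 4 each; log2 fold change 0.53 ± 0.0613, edgeR adjusted p = 1.69e-06). Its paralog Dclk2 rose by 0.37 and Map7d1, a relative of Map7, by 0.35. In rTMS-MSCs against MSCs 0 rose and 3 fell, also by DESeq2 (1 higher at an unadjusted p under 0.05), among them Camsap2 (-0.48 ± 0.107, edgeR adjusted p = 0.00575) and Camsap1 (-0.23), which hold the minus ends of microtubules. Without the pair 1 of 12 fell, which was Camsap2, and Camsap1 was at -0.22 (edgeR adjusted p = 0.0615). In rTMS-MSCs against OGDR 4 rose and 4 fell, with Dclk1 at 0.49 and Map7d1 at 0.43.

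Plus-end tracking proteins ride on the growing tips of microtubules, though not every gene of this list, Clip3 among them, is established as one. Of 18 tested, 5 rose and 0 fell in MSCs against OGDR (1 lower at an unadjusted p under 0.05, 0 by DESeq2), and 5 rose and 1 fell without the pair of replicates 3. Among those that rose over all libraries were Clip3 (0.38 ± 0.0655, edgeR adjusted p = 0.000219), Macf1 (0.34), which links microtubules to actin, and Clip2 (0.24). In rTMS-MSCs against MSCs 0 rose and 10 fell by edgeR, 0 and 11 by DESeq2, and 1 and 13 at an unadjusted p under 0.05. Without the pair 5 fell. Over all tested genes 11.6% were higher in MSCs against OGDR, and 10.9% were lower in rTMS-MSCs against MSCs. Nav3, a navigator protein, stood at 23.0 ± 5.26 CPM in rTMS-MSCs and 44.0 ± 7.91 CPM in MSCs (SD, n = 4 each; log2 fold change -0.94 ± 0.161, edgeR adjusted p = 0.00155), and its relative Nav1 fell by 0.36. Against OGDR, 3 rose and 5 fell in rTMS-MSCs, with Nav3 at -0.98 and Slain2 at -0.46.

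Of 23 motor and dynein genes, 3 rose and 2 fell in MSCs against OGDR (3 and 4 by DESeq2, and 3 and 4 without the pair), with the kinesins Kif1a at -0.82, Kif21a at 0.43 and Kif1c at 0.22. In rTMS-MSCs against MSCs 0 rose and 7 fell, also by DESeq2 (1 higher at an unadjusted p under 0.05), and 2 fell without the pair. Dync1h1, the heavy chain of cytoplasmic dynein, had 882 ± 36.3 CPM in rTMS-MSCs and 1061 ± 43.3 CPM in MSCs (SD, n = 4 each; log2 fold change -0.27 ± 0.0489, edgeR adjusted p = 0.00217). Kif5c, a kinesin-1 heavy chain, fell by 0.51. Against OGDR, 1 rose and 8 fell in rTMS-MSCs, with Kif21b at -0.37 and Kif1c at 0.25.

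Kinases and phosphatases that act on MAPs (25 tested) were split. In MSCs against OGDR 2 rose and 2 fell, with Dyrk1a at -0.22, Brsk1 at -0.32 and the phosphatase subunit Ppp2r2c at 0.58. In rTMS-MSCs against MSCs 2 rose and 3 fell, and none passed without the pair. Gsk3b, a tau kinase, was at -0.40 and the calcineurin subunit Ppp3ca at -0.43 with all libraries, and at -0.28 (edgeR adjusted p = 0.0586) and -0.31 (edgeR adjusted p = 0.0986) without the pair. Against OGDR, 6 rose and 4 fell in rTMS-MSCs, and 2 rose and 3 fell without the pair, with Dyrk1a at -0.32 and Mapk8 at -0.39 over all libraries.

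Tubulin modifying enzymes (19 tested) had 2 higher and 2 lower in MSCs against OGDR, 1 higher and 2 lower in rTMS-MSCs against MSCs (0 and 1 without the pair), and 2 higher and 3 lower in rTMS-MSCs against OGDR. Ttll7, which adds glutamate chains to tubulin, fell by 0.66 ± 0.120 in MSCs against OGDR (edgeR, adjusted p = 0.000382) and by 0.90 in rTMS-MSCs against OGDR. Vash1, which removes the end tyrosine of alpha-tubulin, rose by 0.29 with stem cells and Ttll3 by 1.08. Ttll4 fell by 0.44 and Tpgs1 rose by 0.34 in rTMS-MSCs against MSCs, and Tpgs1 did not pass without the pair (0.28, edgeR adjusted p = 0.091). Ttl, which puts the tyrosine back, fell by 0.48 in rTMS-MSCs against OGDR.

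Severing enzymes, which cut microtubules, had 0 of 7 tested genes past the threshold in MSCs against OGDR by edgeR and DESeq2, and 2 lower at an unadjusted p under 0.05. There Katna1 was at -0.26 (edgeR adjusted p = 0.0741), Katnbl1 at -0.27 and Fignl1 at -0.29. Without the pair Katnbl1 fell (-0.36, edgeR adjusted p = 0.0146). In rTMS-MSCs against MSCs 0 of 7 passed by edgeR, and 1 was lower by DESeq2 and at an unadjusted p under 0.05, with Fign at -0.61 (edgeR adjusted p = 0.0506). Against OGDR, 2 fell in rTMS-MSCs, Fign by 0.76 and Katnbl1 by 0.34, and Katnbl1 did not pass without the pair (-0.25, edgeR adjusted p = 0.0827).

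**Figure D4:**
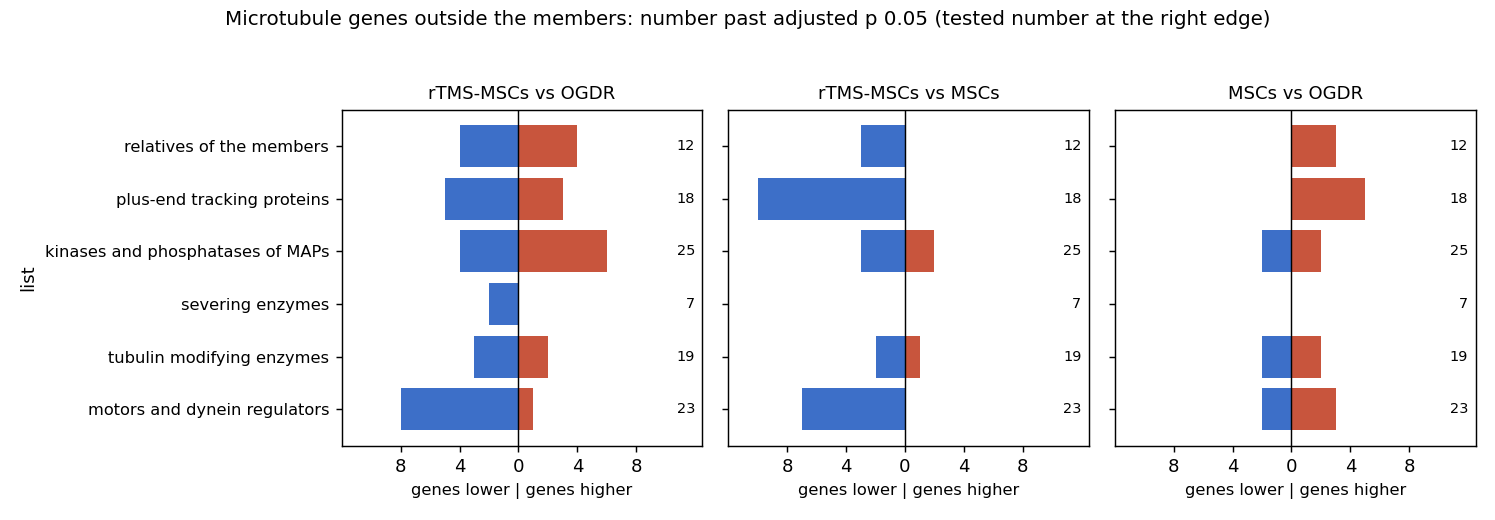
Number of genes past an adjusted p of 0.05 in each of 6 lists of microtubule genes outside the members (rows), lower to the left of 0 and higher to the right, in the 3 comparisons (panels), with the number tested at the right edge. Plus-end tracking proteins are split between comparisons, with 5 higher and 0 lower in MSCs against OGDR and 0 higher and 10 lower in rTMS-MSCs against MSCs (5 and 1, and 0 and 5, without MSCs 3 and rTMS-MSCs 3). Over all tested genes 11.6% were higher in the first of these and 10.9% lower in the second. Both use the MSCs libraries, so opposite signs in them are not independent.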

How the data were processed

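Bulk RNA sequencing of 12 libraries, 4 in each of 3 groups, was analysed. The authors deposited raw counts per Ensembl gene. The submitters' processing notes name HISAT2 2.1.0, HTSeq 0.11.2, DESeq2 1.40.1 and the build mRatBN7.2, and the sources used here do not give the strand setting. Of 30454 genes 26135 had a symbol, and 5 summary lines were left out. Reads on no feature were 51.7285% to 52.7141% of each library, and reads on more than 1 gene 0.613% to 0.695%. Depth was 18246250 to 20471838 counts in genes.

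The counts were filtered with filterByExpr of edgeR 4.0.16 (R 4.3.3; minimum count 10, minimum total 15) and scaled by TMM. All 12 libraries entered 1 quasi-likelihood fit with group means, which were compared by contrasts, with Benjamini-Hochberg adjustment over all 13692 tested genes. The standard error of a log2 fold change is its size over the root of the F statistic, and 95% intervals use it. CPM rests on library sizes after TMM scaling, and log2 CPM has a prior count of 2. The fit was tested on simulated data. Alternatives were median ratio and upper quartile scaling, no filter, DESeq2 1.42.0, a fit of 8 libraries, a replicate block and leaving out each library. Leaving out MSCs 3 and rTMS-MSCs 3 together was added after the data were seen.

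Members and lists were chosen with earlier results of these data known, and no set test was run. Named genes are all members and, per list, the 3 genes with the smallest p in MSCs against OGDR and 2 in each other comparison. To these come the 3 genes most like each member that changed, and for marker lists the genes highest in level or at 0. In the RefSeq annotation (GRCr8) Map6, Map7 and Mapt overlap long non-coding RNAs, so their counts may hold reads of these. Tp53bp1 was named because it overlaps Map1a. A few genes that the rule names are not reported here. Promoters are RefSeq sequences of that build.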

Additional observations from a re-analysis of the deposited data

Results flagged for a closer look

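In 1 of the 24 groups of 4 libraries examined, 1 library stood far from the others. Map6 in rTMS-MSCs 1 was at 79.1 CPM, while the other 3 rTMS-MSCs libraries were at 83.9 to 84.7 CPM, so that 0.851 of the range lay between it and its neighbour. Chance alone gives about 1 such group in 20, and Map6 did not pass in any comparison.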

How the results depend on the processing

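The rises of Map1a, Map1b and Map4 in MSCs against OGDR, and the falls of Map1a, Map1b and Map2 in rTMS-MSCs against MSCs, kept their direction and passed under both other scalings, no filter, DESeq2, the fit of 8 libraries, the replicate block and each library left out. In rTMS-MSCs against OGDR the number of members past the threshold was 4, and 2 to 4 with 1 library left out. Map1a and Map2 there are the calls that were lost, at 0.13 to 0.18 and -0.77 to -0.41 with 1 library left out. Under the replicate block 3 members passed in each comparison, 2577, 1995 and 4185 genes changed in MSCs against OGDR, rTMS-MSCs against MSCs and rTMS-MSCs against OGDR, and Map1a in the last comparison was the only member whose call it changed (edgeR adjusted p = 0.0579). Of 12 same-numbered pairs of libraries, 1 had a correlation over 0.1 between deviations from the group means (range -0.205 to 0.128). This cannot tell whether a number marks a shared culture or day, which the labels do not say. The number of genes changed in rTMS-MSCs against MSCs was 2475, but 1313 without MSCs 1, 1006 without MSCs 3, 1480 without rTMS-MSCs 3 and 677 without the pair of replicates 3, and the cause was not tested. It ran from 1006 to 3196 over all single libraries left out, from 2243 to 2614 in MSCs against OGDR and from 3461 to 4683 in rTMS-MSCs against OGDR. Signs turned only in members that did not pass: Map1s in rTMS-MSCs against OGDR (-0.009988 to 0.0817) and against MSCs (-0.0488 to 0.0164), and Map7 against MSCs (-0.0213 to 0.122). Upper quartile scaling gave 46.6% higher among calls in rTMS-MSCs against MSCs, beside 39.5%, and 50.4% in MSCs against OGDR, beside 57.3%. Depth limits Dcx. Map2 and Map7 had few reads too, at 141 to 304 and 224 to 241 per rTMS-MSCs library, but they did not spread alike. The standard deviation of Map2 was 30.5% of the mean in rTMS-MSCs, 30.6% in MSCs and 9.70% in OGDR. For Map7 it was 3.25%, 16.8% and 14.7%. The part of depth in these spreads was not tested.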
